A study of Homo sapiens with 6 samples.

Results

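The extracellular matrix genes examined here encode glycoproteins, laminins and proteoglycans, that is, matrix components other than collagens. The list held 38 genes, named with earlier results of these data known, and all 38 were found by gene symbol in a table of 61731 genes and loci. The RNA came from U87-MG, an established human glioblastoma cell line. There were 3 libraries of the normal control, called negative control (NC) here after the study's usage, and 3 libraries with the label CHRM Knockdown (KD), in which the study used a lentivirus directed at CHRM3, the M3 muscarinic acetylcholine receptor. The labels give no difference between the groups other than this knockdown, and both groups are the same cell line. The knockdown sequence carried by these cells is not named in the sources used here, and it is not stated whether a group's libraries derive from separate cultures, so the p-values measure the spread between libraries, which may be technical.

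The matrix around a cell is a network of secreted proteins and sugars. Glycoproteins such as fibronectin bind integrins and join cells to fibres, fibrillins and fibulins build the elastic fibres, and laminins, nidogens and perlecan form the sheet called the basement membrane. Proteoglycans carry long sugar chains that hold water and growth factors, and hyaluronan is a free sugar chain made at the cell surface. In glioblastoma, tenascin-C, fibronectin and hyaluronan are well-known parts of the tumour matrix along which cells move.

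CHRM3 itself was listed at 0.02, 0.09 and 0.13 TPM in the 3 controls and at 0.13, 0.01 and 0.02 TPM in KD replicates 1, 2 and 3. TPM is the share of a library given to a gene after correction for its length. The groups overlapped (p = 0.80 in an exact permutation test, two-sided, in which 3 against 3 libraries cannot go below 0.10). The reduction of the target could thus not be seen at this level, and within these data the groups rest on their labels. The study separately reported an efficient knockdown of CHRM3 in U87-MG cells. Of the markers of glioma cells, VIM was between 6528 and 7451 TPM and CD44 between 459 and 620 TPM, whereas the glial genes SOX2, OLIG2 and S100B stayed at or under 0.56 TPM and GFAP reached at most 1.46 TPM. These markers went different ways. VIM was higher in the KD-labelled libraries (limma adjusted p = 0.000416) and CD44 lower (limma adjusted p = 0.000529). NES rose from 2.25 ± 0.281 to 3.58 ± 0.396 TPM (SD, n = 3 each, limma adjusted p = 0.0151). None of 7 leukocyte markers reached a mean of 1 TPM, and TYROBP and CD3E were listed at 0 in all 6 libraries. Of 6 endothelial markers KDR alone reached that mean, falling from 3.37 ± 0.221 to 1.40 ± 0.0557 TPM (SD, n = 3 each, limma adjusted p = 0.000857), and CLDN5 was listed at 0. Of 5 epithelial markers 2 did, and all 5 summed to 2.99 to 3.98 TPM in the controls and 7.58 to 9.46 TPM in the KD-labelled libraries. Most of this was KRT8, which rose from 2.27 ± 0.416 to 6.73 ± 0.881 TPM (SD, n = 3 each, limma adjusted p = 0.000766). Of 6 neuronal markers 3 reached that mean, and all 6 summed to 282.4 to 285.2 and 420.9 to 440.2 TPM, most of it TUBB3. Another of these, GAD1, was 15.2 ± 0.437 and 12.9 ± 1.24 TPM (SD, n = 3 each, limma adjusted p = 0.0534). Of 6 pericyte and fibroblast markers, cells known to make much matrix, 4 reached a mean of 1 TPM. The summed level of all 6 was 95.3 to 100.1 TPM in the controls and 194.9 to 202.1 TPM in the KD-labelled libraries, most of it ACTA2. On that list PDGFRB also rose (limma adjusted p = 0.00271), CSPG4 fell from 28.9 ± 0.656 to 24.9 ± 0.61 TPM (SD, n = 3 each, limma adjusted p = 0.00646), RGS5 overlapped, PDGFRA was under 1 TPM in every library and lower in the KD-labelled libraries, and THY1 was listed at 0 in the 3 controls. The part of these markers in the results below was not tested, and in such bulk RNA a change in the kinds of cells present and a change in RNA per cell cannot be told apart.

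To show DNA near the start of members that moved, the 250 bases before the start of the promoter entry are printed here for 6 genes. These are 3 members that were higher in the KD-labelled libraries (THBS1, FBN1 and SPARC) and 3 that were lower (FN1, ECM1 and POSTN). By GENCODE positions, only the THBS1 window lies wholly upstream of its gene. The FBN1 and SPARC windows lie wholly inside the gene, and those of FN1, ECM1 and POSTN partly. The 6 genes were picked because each holds a match to a motif searched. FBN2 and NID2, which were also higher, hold matches to CCAAT alone and are not printed. The 3 printed members that were higher are thus those with GGAATG, and the printed windows cannot be used to compare motifs between directions. Of the windows of called members, 4 of 7 that were lower and 4 of 9 that were higher hold no match, among them SPP1, TNC, LAMB1 and LAMC1. The sequences are RefSeq's (GRCh38.p14), read 5′ to 3′ on the strand of the gene. Capitals mark matches on either strand to GGAATG (bound by TEAD factors), TGACGTCA (the cyclic AMP response element, CRE), TGANTCA (bound by AP-1), CCAAT or TATAAA, and no matches overlapped in these windows.
THBS1, chr15:39580829-39581078, plus strand: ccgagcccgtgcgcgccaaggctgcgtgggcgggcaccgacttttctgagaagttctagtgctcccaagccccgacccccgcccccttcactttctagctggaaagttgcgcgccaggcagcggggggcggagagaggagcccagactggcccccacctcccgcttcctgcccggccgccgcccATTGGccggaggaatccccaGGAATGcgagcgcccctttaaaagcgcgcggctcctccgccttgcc
FBN1, chr15:48644971-48645220, minus strand: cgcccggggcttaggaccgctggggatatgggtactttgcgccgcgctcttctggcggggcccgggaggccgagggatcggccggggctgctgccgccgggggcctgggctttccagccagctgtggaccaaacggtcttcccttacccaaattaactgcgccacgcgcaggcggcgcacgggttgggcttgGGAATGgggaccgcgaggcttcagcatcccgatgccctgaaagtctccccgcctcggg
SPARC, chr5:151686916-151687165, minus strand: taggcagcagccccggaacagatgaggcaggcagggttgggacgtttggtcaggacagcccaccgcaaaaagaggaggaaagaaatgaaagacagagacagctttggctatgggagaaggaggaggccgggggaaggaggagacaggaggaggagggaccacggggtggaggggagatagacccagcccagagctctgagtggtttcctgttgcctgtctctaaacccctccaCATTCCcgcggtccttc
FN1, chr2:215436069-215436318, minus strand: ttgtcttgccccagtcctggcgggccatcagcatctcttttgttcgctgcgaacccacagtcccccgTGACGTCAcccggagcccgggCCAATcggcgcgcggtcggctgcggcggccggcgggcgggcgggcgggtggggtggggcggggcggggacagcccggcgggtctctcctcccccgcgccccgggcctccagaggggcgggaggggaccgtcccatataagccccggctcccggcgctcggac
ECM1, chr1:150507859-150508108, plus strand: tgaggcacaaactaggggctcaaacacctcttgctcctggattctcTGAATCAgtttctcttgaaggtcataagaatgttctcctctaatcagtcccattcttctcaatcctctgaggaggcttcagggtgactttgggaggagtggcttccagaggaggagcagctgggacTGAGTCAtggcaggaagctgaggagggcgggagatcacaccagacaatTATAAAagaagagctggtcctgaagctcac
POSTN, chr13:37598769-37599018, minus strand: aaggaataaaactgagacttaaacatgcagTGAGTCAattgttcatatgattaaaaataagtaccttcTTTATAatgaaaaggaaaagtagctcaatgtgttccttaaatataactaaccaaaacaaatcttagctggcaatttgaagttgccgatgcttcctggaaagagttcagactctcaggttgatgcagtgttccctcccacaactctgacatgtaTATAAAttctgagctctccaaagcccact

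Of the 38 members, 28 had an entry in the table of promoters. Of these 28, 9 were higher, 7 were lower, 6 did not pass the test and 6 were not tested. Of all tested genes 12.1% were higher and 24.0% lower. The 28 members with an entry are not the same set as the 28 tested members described below. No entry was matched for DCN, LUM, HAS2, MGP, AGRN, EMILIN1, MFAP5, EFEMP1, SPOCK1 or ELN. GGAATG was found in 6 of the 28 member windows (21.4%), against 11.9% of all 35116 windows of that length. These were THBS1, FBN1 and SPARC, which were higher, and LAMA2, SRPX2 and THBS2, which did not pass the test. TGANTCA was found in 3 member windows (10.7%), against 6.57% of all windows. These were ECM1 and POSTN, which were lower, and SRPX2. The only member window with TGACGTCA was that of FN1, beginning 183 bases before the start, against 1.65% of all windows. Distances here are counted from the start of the promoter entry. For all printed genes but THBS1, that start lies inside the gene by GENCODE positions. CCAAT was present in 6 member windows (21.4%, against 32.0% of all), and TATAAA in 3 (10.7%, against 10.7%). Of the members with CCAAT, 3 were higher, 1 was lower and 2 were not tested. Of those with TATAAA, 2 were lower and 1 did not pass the test. In THBS1 the GGAATG began 46 bases before the start, in FBN1 58 and in SPARC 17. In ECM1 TATAAA began 30 bases before the start, and in POSTN the nearer of its matches began 29 bases before it. The motifs were chosen after the fold changes were seen, so these shares and directions are a description and not a test. The matches describe letters in a window and do not show that a factor was bound.

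The 38 members together held 3251 to 3314 TPM in the controls and 2708 to 2769 TPM in the KD-labelled libraries, or 0.325% to 0.331% and 0.271% to 0.277% of all TPM. The sum was thus lower in each KD-labelled library than in any control. This held for the members and not for the wider list of matrix genes described last. With its 98 genes added, the sum was 8825 to 8907 TPM in the controls and 9155 to 9291 TPM in the KD-labelled libraries. That list holds TGFBI, an abundant matrix protein singled out after its values were seen, which rose from 3845 ± 9.69 to 4929 ± 41.5 TPM (SD, n = 3 each), and without it the wider sum was 4969 to 5068 and 4246 to 4320 TPM. FN1, SPARC, TNC and SPP1 were the most abundant members and held 78.0% to 78.6% of this sum in the controls and 74.1% to 74.7% in the KD-labelled libraries. Levels spanned a wide range, from FN1 at a control mean of 987.4 TPM to HAPLN1, a link protein of hyaluronan, which was listed at 0 in every library. The order of the leading members also differed between the groups. In the controls it ran FN1, SPP1, then TNC and SPARC, whose libraries overlapped, and in the KD-labelled libraries FN1, SPARC, TNC and SPP1, with no overlap between neighbours.

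**Figure D1:**
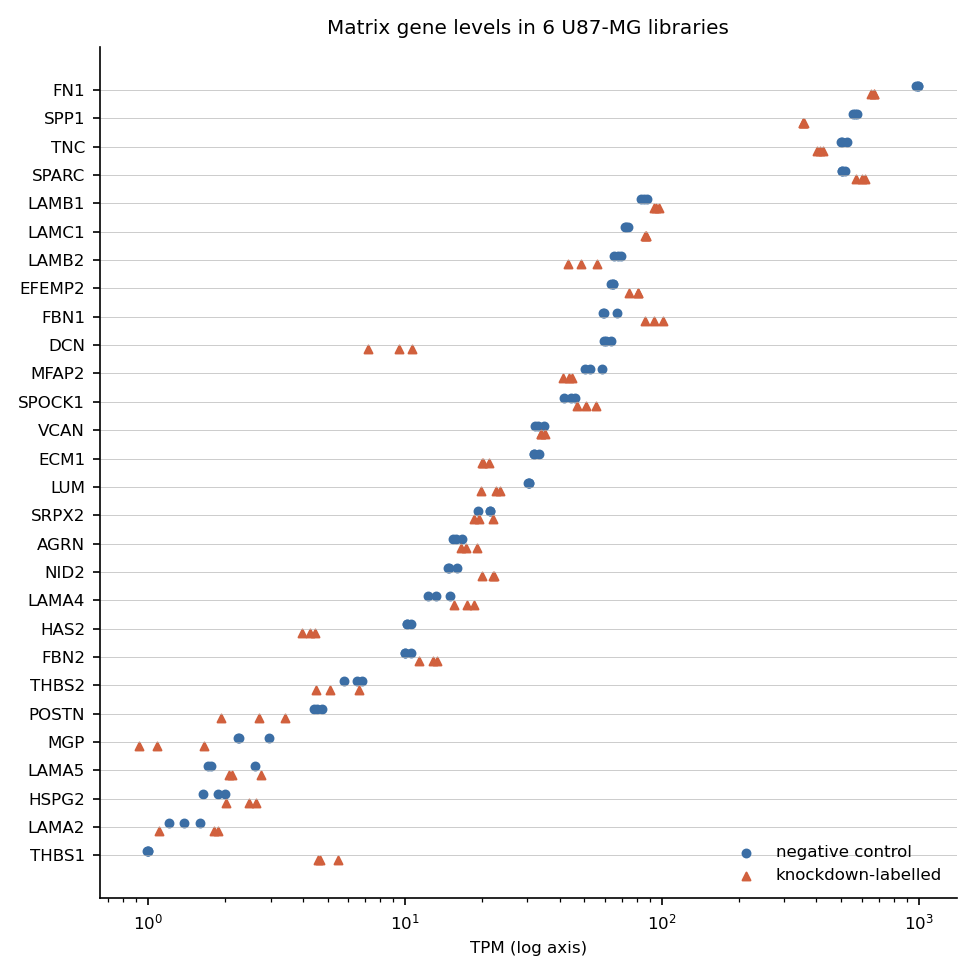
TPM (log axis) of the 28 members with a mean of at least 1 TPM in each of the 3 control (circles) and 3 KD-labelled (triangles) libraries, ordered by control mean. DCN, HAS2 and THBS1 show the widest gaps between groups, and VCAN and SRPX2 overlap.

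Genes whose mean over the 6 libraries reached 1 TPM were tested by limma on log2(TPM + 1), and a gene was called at a Benjamini-Hochberg adjusted p under 0.05 over all 13722 genes tested. Of the members, 28 passed this limit. THBS1 passed it only through its KD-labelled libraries. Of these 28 members, 11 were lower (39.3%), where 24.0% of all tested genes were, and 9 were higher (32.1%), where 12.1% of all tested genes were. Abundant genes were called more often. Of the 20 members with a mean of at least 10 TPM, 8 were lower and 8 were higher, where 32.8% and 15.7% of tested genes at that level were. The median log2 fold change of the 28 members was 0.07 and that of all tested genes was -0.06. Of all calls, 66.5% were lower as deposited, and 49.1% were after median-of-ratios scaling, with which 11 members were lower and 11 higher. With a further limit of 1 on the size of the log2 fold change, which 1.87% of all tested genes met, 3 members were called (DCN, HAS2 and THBS1). The control and KD-labelled values did not overlap for 22 of the 28 members, against 50.2% of all tested genes.

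**Figure D2:**
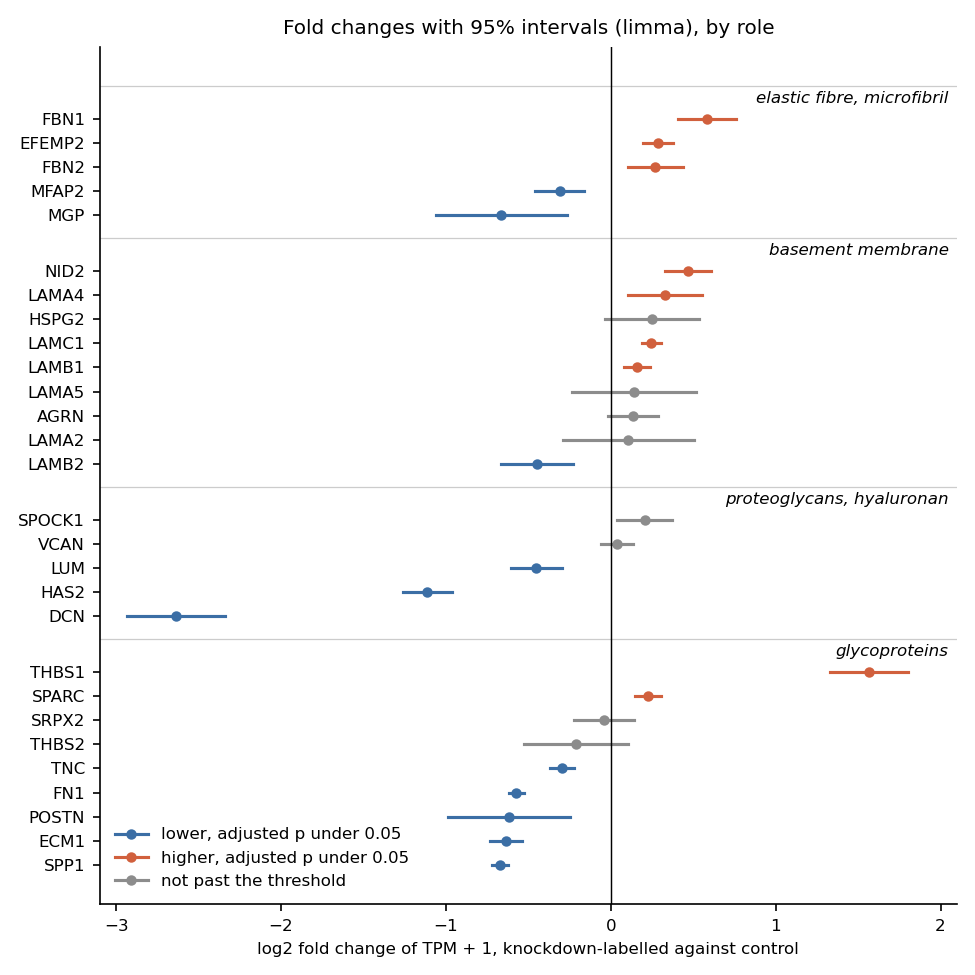
Log2 fold change of TPM + 1 (point) with its 95% interval (line) from limma for the 28 tested members, grouped by role; negative values are lower in the KD-labelled libraries. DCN lies at -2.64 and THBS1 at 1.56, and most other members lie within 0.7 of 0.

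Beside the counts for each role given from here on, 24.0% of all tested genes were lower and 12.1% were higher. Of the 5 tested proteoglycan and hyaluronan members, 3 were lower, none was higher and 2 did not pass the test, with a median log2 fold change of -0.45. They included the largest fall of any member. DCN encodes decorin, a proteoglycan that coats collagen fibrils and binds growth factors. It was 60.78, 59.54 and 63.19 TPM in the controls and 7.19, 9.46 and 10.63 TPM in KD replicates 1, 2 and 3. Every KD-labelled library lay far below every control, and the mean fell from 61.2 ± 1.86 to 9.09 ± 1.75 TPM (SD, n = 3 each), 6.73-fold lower (log2 fold change -2.64, SE 0.124, limma adjusted p = 3.05e-05). LUM encodes lumican, a related proteoglycan of collagen fibrils. In GENCODE 29 (GRCh38) both genes lie on the minus strand of chromosome 12, LUM from 91102629 to 91111831 and DCN from 91140484 to 91183123, with 28652 bases and no other annotated gene between them. LUM was 30.15, 30.38 and 30.55 TPM in the controls and 19.82, 23.44 and 22.67 TPM in the KD-labelled libraries. These also did not overlap, but the fall was smaller, 1.38-fold (log2 fold change -0.45, SE 0.0637, limma adjusted p = 0.00236). The ratio of DCN to LUM within a library, which does not depend on how libraries are scaled, was 2.01 ± 0.0543 in the controls and 0.412 ± 0.0535 in the KD-labelled libraries (SD, n = 3 each), an exact permutation p of 0.10, the smallest possible.

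HAS2, on chromosome 8, encodes an enzyme that makes hyaluronan. Its level was 10.23, 10.23 and 10.52 TPM in the controls and 3.97, 4.27 and 4.48 TPM in the KD-labelled libraries. It was 2.44-fold lower, with little spread in either group (log2 fold change -1.11, SE 0.0616, limma adjusted p = 5.96e-05). An exon of HAS2 overlaps the antisense gene HAS2-AS1, which was 2.20 to 3.56 TPM in the controls and 2.27 to 2.66 TPM in the KD-labelled libraries, and the strand used in counting is not given in the sources used here. The other two synthases are not members and were looked up after the values of HAS2 were seen. HAS1 rose from 1.67 ± 0.10 to 3.05 ± 0.380 TPM (SD, n = 3 each, limma adjusted p = 0.00721), and HAS3 was 2.21 ± 0.0529 and 2.35 ± 0.251 TPM (limma adjusted p = 0.69). The ratio of HAS2 to HAS1 went from 6.19 ± 0.484 to 1.41 ± 0.269 (SD, n = 3 each). As HAS2 fell and HAS1 rose without overlap, this ratio had to separate and is no further test. The sum of the HAS genes went from 14.2 ± 0.125 to 9.64 ± 0.108 TPM (SD, n = 3 each). It did not overlap between the groups (exact permutation p = 0.10, the smallest possible). VCAN, which encodes versican, a large proteoglycan that binds hyaluronan, was 33.4 ± 1.36 and 34.3 ± 0.76 TPM (SD, n = 3 each), overlapping between the groups. Its difference did not pass the test, and its 95% interval on the log2 scale ran from -0.06 to 0.14. SPOCK1, encoding testican, was 44.0 ± 2.31 and 51.0 ± 4.36 TPM (SD, n = 3 each). Its values did not overlap, but its limma adjusted p was 0.0591. It was 0.0276 with median-of-ratios scaling, 0.0207 with quantile normalization and 0.0314 without KD replicate 2. With a limit of 5 TPM it was 0.045 and with protein-coding genes only 0.0388. In the other alternatives it stayed above 0.05.

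**Figure D3:**
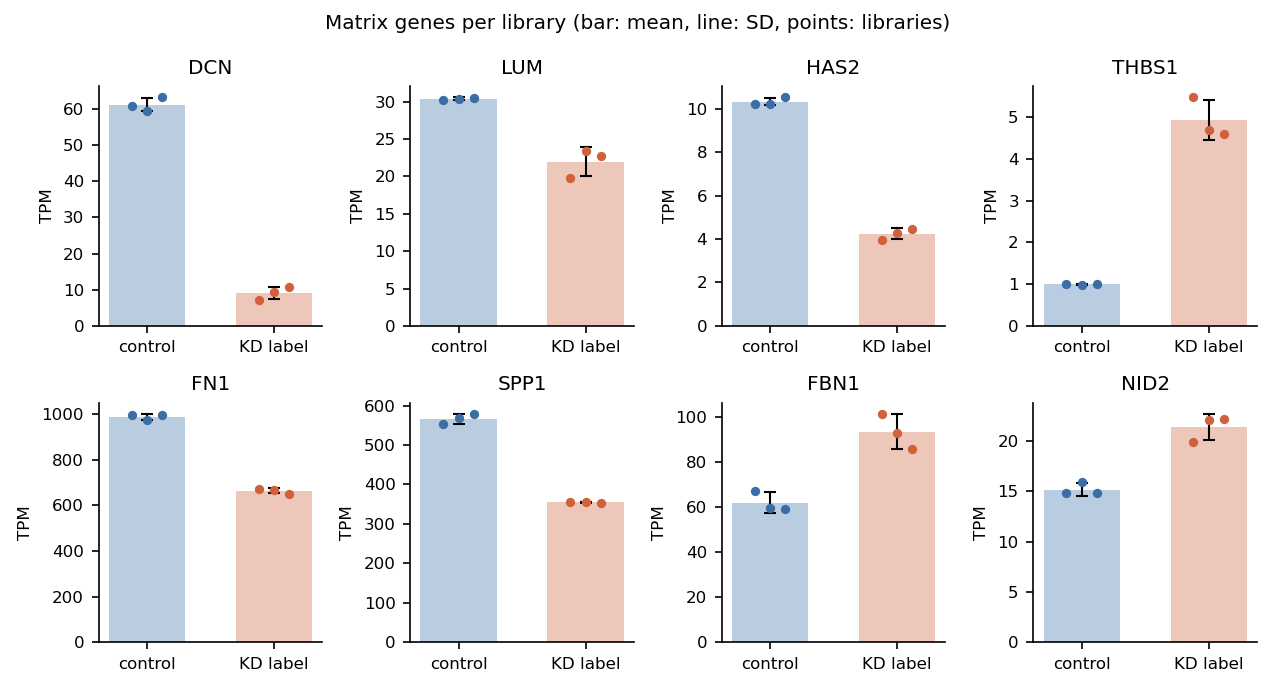
TPM of 8 members in the 3 control and 3 KD-labelled libraries; bars are means, lines are SD and points are libraries, on axes that start at 0. DCN, LUM, HAS2, FN1 and SPP1 were lower in the KD-labelled libraries, and THBS1, FBN1 and NID2 were higher.

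Among the cell-binding and matricellular glycoproteins, 5 of the 9 members were lower, 2 were higher and 2 did not pass the test, and the median log2 fold change was -0.30. FN1 encodes fibronectin, a ligand of integrins that also scaffolds other matrix proteins. It was 994.6, 973.09 and 994.42 TPM in the controls and 671.49, 668.89 and 649.98 TPM in the KD-labelled libraries. The groups were far apart relative to their spread, a 1.49-fold fall (log2 fold change -0.57, SE 0.0188, limma adjusted p = 7.41e-06). SPP1 encodes osteopontin, a secreted ligand of integrins and of CD44. It was 553.36, 567.8 and 577.88 TPM in the controls and 355.5, 356.74 and 354.17 TPM in the KD-labelled libraries. The KD-labelled values lay within 3 TPM of each other and all under the controls (1.59-fold lower, log2 fold change -0.67, SE 0.0201, limma adjusted p = 5.61e-06). TNC encodes tenascin-C, a large glycoprotein of the glioma and wound matrix. Its 3 controls were 501.86, 497.76 and 527.71 TPM and its KD-labelled values 413.49, 426.16 and 403.46 TPM. This was a smaller fall without overlap (log2 fold change -0.30, SE 0.0307, limma adjusted p = 0.000687).

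ECM1, encoding extracellular matrix protein 1, was 31.85, 31.89 and 33.20 TPM in the controls and 19.97, 21.23 and 20.19 TPM in the KD-labelled libraries. It was 1.58-fold lower, close to the fall of SPP1 (log2 fold change -0.63, limma adjusted p = 9.48e-05). POSTN encodes periostin, a matricellular protein that binds integrins. It was 4.77, 4.54 and 4.43 TPM in the controls and 1.93, 2.70 and 3.42 TPM in the KD-labelled libraries, which were spread more widely than the controls. Its fall passed narrowly (log2 fold change -0.62, limma adjusted p = 0.0221). That p rose to 0.0561 without KD replicate 2, 0.0689 without NC replicate 1, 0.0606 without NC replicate 2 and 0.0565 without NC replicate 3.

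The thrombospondins went different ways. THBS1 encodes thrombospondin-1, a glycoprotein known for activating latent TGF-beta and restraining blood vessel growth. It was 1, 0.99 and 1 TPM in the controls and 5.47, 4.69 and 4.6 TPM in KD replicates 1, 2 and 3. All KD-labelled libraries were well above the controls, 4.94-fold as a ratio of mean TPM (log2 fold change of TPM + 1 of 1.56, SE 0.0988, limma adjusted p = 9.73e-05). Exons of THBS1 (chromosome 15, 39581079 to 39599466, plus strand) overlap those of FSIP1 on the opposite strand, which was 2.51 to 3.28 TPM in the controls and 2.27 to 2.84 TPM in the KD-labelled libraries. THBS2, a close relative of the same family, was 6.37 ± 0.512 and 5.41 ± 1.10 TPM (SD, n = 3 each), which overlapped (95% interval of the log2 fold change from -0.53 to 0.10). Without KD replicate 1 its limma adjusted p was 0.0478, with a log2 fold change of -0.34. The ratio of THBS1 to THBS2 was 0.157 ± 0.0133 in the controls and 0.922 ± 0.0986 in the KD-labelled libraries (SD, n = 3 each, exact permutation p = 0.10, the smallest possible).

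SPARC encodes osteonectin, a collagen-binding protein. It was 517.37, 504.67 and 504.95 TPM in the controls and 568.3, 617.37 and 603.87 TPM in the KD-labelled libraries. It was the only one of the most abundant 4 members that was higher in the KD-labelled libraries (1.17-fold, log2 fold change 0.23, SE 0.0325, limma adjusted p = 0.00249). The ratio of FN1 to SPARC accordingly went from 1.94 ± 0.0256 to 1.11 ± 0.0588, and that of SPP1 to SPARC from 1.11 ± 0.0389 to 0.597 ± 0.0254 (SD, n = 3 each). SRPX2, a secreted sushi-repeat protein, was 20.7 ± 1.26 and 20.1 ± 1.83 TPM (SD, n = 3 each), and its 95% interval on the log2 scale was -0.22 to 0.14.

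In the basement membrane, 4 of the 9 tested members were higher, 1 was lower and 4 did not pass the test, with a median log2 fold change of 0.16. A laminin is a trimer of an alpha, a beta and a gamma chain. LAMC1, the main gamma chain, was 71.76, 72.77 and 73.90 TPM in the controls and 85.93, 87.02 and 86.67 TPM in the KD-labelled libraries. This was a tight and modest rise (log2 fold change 0.25, SE 0.0240, limma adjusted p = 0.000538). LAMB1, the beta-1 chain, was 87.51, 82.74 and 85.10 TPM in the controls and 97.89, 93.22 and 94.56 TPM in the KD-labelled libraries. It rose less, again without overlap (log2 fold change 0.16, SE 0.0321, limma adjusted p = 0.00988). An exon of LAMB1 overlaps DLD on the opposite strand, which averaged 59.8 TPM and did not pass the test (limma adjusted p = 0.313). LAMB2, the beta-2 chain, which can take the place of beta-1 in a trimer, went the other way. It was 69.47, 67.29 and 65.00 TPM in the controls and 48.61, 56.08 and 43.04 TPM in KD replicates 1, 2 and 3, a 1.37-fold fall (log2 fold change -0.45, SE 0.0911, limma adjusted p = 0.0102). The ratio of LAMB1 to LAMB2 was 1.26, 1.23 and 1.31 in the controls and 2.01, 1.66 and 2.20 in the KD-labelled libraries. As LAMB1 rose and LAMB2 fell without overlap, this ratio had to separate and is no further test. The ratio of LAMB1 to LAMC1 overlapped, at 1.17 ± 0.0440 and 1.10 ± 0.0349 (SD, n = 3 each, exact permutation p = 0.2). LAMB1 made up 51.8% ± 0.930 of the summed beta chains in the controls and 62.2% ± 2.20 in the KD-labelled libraries (SD, n = 3 each).

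LAMA4, an alpha chain of vessel and mesenchymal basement membranes, was 13.21, 12.25 and 15.02 TPM in the controls and 15.48, 17.47 and 18.61 TPM in the KD-labelled libraries. The nearest values of the groups were close together, and the call was weak (log2 fold change 0.33, limma adjusted p = 0.0348). The adjusted p was 0.0942 without KD replicate 2, 0.0987 without KD replicate 3, 0.094 without NC replicate 1 and 0.0965 without NC replicate 2. The ratio of LAMA4 to LAMC1 overlapped, at 0.185 ± 0.0175 and 0.199 ± 0.0174 (SD, n = 3 each, exact permutation p = 0.5). LAMA4 was the most abundant alpha chain, with 57.1% ± 1.54 of the summed alpha chains in the controls and 67.0% ± 2.77 in the KD-labelled libraries (SD, n = 3 each). LAMA2 and LAMA5 were near 2 TPM or less on average and overlapped between the groups. Of the alpha chains that are not members, LAMA1 fell from 4.47 ± 0.348 to 2.78 ± 0.115 TPM (SD, n = 3 each, limma adjusted p = 0.00382), and LAMA3 was 2.22 ± 0.559 and 1.73 ± 0.181 TPM (limma adjusted p = 0.293). The gamma chain LAMC3 was at most 0.06 TPM. Summed over all chains listed, members or not, alpha was 23.6 ± 1.82 and 25.6 ± 1.49 TPM, beta 164.2 ± 4.51 and 153.1 ± 4.97 TPM, and gamma 77.7 ± 0.740 and 91.6 ± 0.218 TPM (SD, n = 3 each, control and KD-labelled). The alpha transcripts were thus the scarcest kind in both groups.

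NID2 encodes nidogen-2, which links laminin to collagen IV. It was 14.82, 15.90 and 14.78 TPM in the controls and 19.90, 22.06 and 22.20 TPM in the KD-labelled libraries. Its rise was the largest of the basement membrane members (1.41-fold, log2 fold change 0.47, SE 0.0578, limma adjusted p = 0.00135). Its relative NID1 was at most 0.06 TPM in any library. An exon of NID2 overlaps RTRAF on the opposite strand, which averaged 150.3 TPM and did not pass the test (limma adjusted p = 0.937). HSPG2, encoding perlecan, was 1.83 ± 0.178 and 2.38 ± 0.328 TPM, and AGRN, encoding agrin, was 16.0 ± 0.653 and 17.7 ± 1.28 TPM (SD, n = 3 each). Neither of these heparan sulfate proteoglycans passed the test, with 95% intervals on the log2 scale of -0.04 to 0.54 and -0.01 to 0.29. AGRN passed with median-of-ratios scaling (limma adjusted p = 0.0495) and quantile normalization (0.0424).

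**Figure D4:**
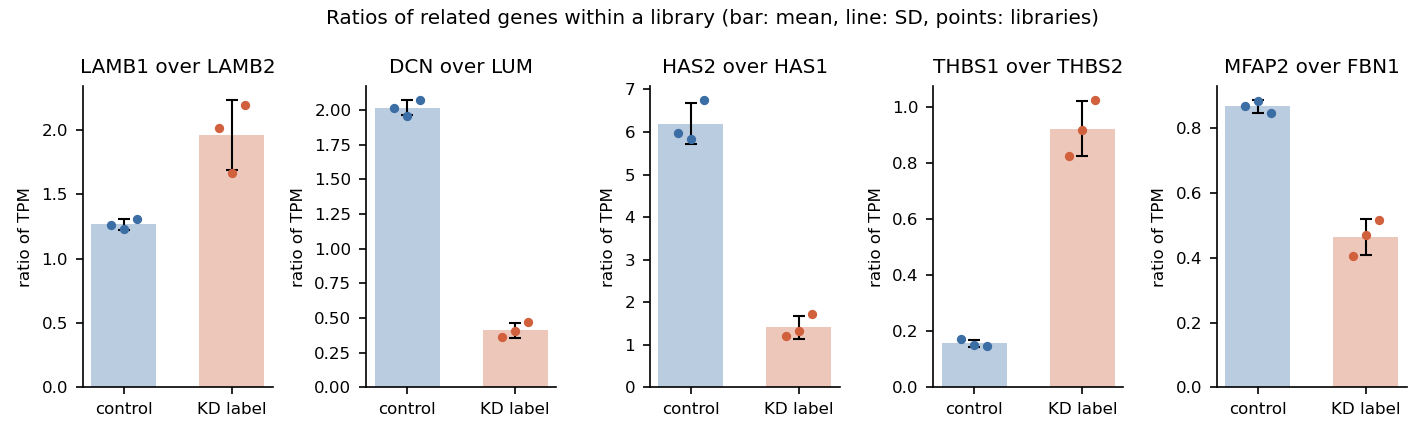
Ratio of the TPM of related matrix genes within each library for 3 control and 3 KD-labelled libraries; bars are means, lines are SD and points are libraries, on axes that start at 0. The ratios of LAMB1 to LAMB2 and THBS1 to THBS2 were higher in every KD-labelled library, and those of DCN to LUM, HAS2 to HAS1 and MFAP2 to FBN1 were lower.

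Of the 12 elastic fibre and microfibril members, 5 were abundant enough to be tested, of which 3 were higher and 2 were lower, with a median log2 fold change of 0.27. FBN1 encodes fibrillin-1, the main subunit of microfibrils. It was 67.20, 59.55 and 59.25 TPM in the controls and 101.34, 92.89 and 86.00 TPM in the KD-labelled libraries. Every KD-labelled value was above every control (1.51-fold, log2 fold change 0.58, SE 0.0738, limma adjusted p = 0.00152). FBN2, the fibrillin of developing tissue, was 10.58, 9.99 and 9.99 TPM in the controls and 13.34, 12.83 and 11.34 TPM in the KD-labelled libraries. Its rise was smaller (log2 fold change 0.27, limma adjusted p = 0.0244). That p was 0.0692 without KD replicate 1, 0.0752 without KD replicate 2, 0.0728 without NC replicate 2 and 0.0732 without NC replicate 3. EFEMP2, or fibulin-4, needed for the assembly of elastic fibres, was 64.48, 64.48 and 63.32 TPM in the controls and 80.52, 74.23 and 80.47 TPM in the KD-labelled libraries. This was a 1.22-fold rise (log2 fold change 0.29, limma adjusted p = 0.00191). An exon of EFEMP2 overlaps MUS81 on the opposite strand, which did not pass the test (limma adjusted p = 0.555).

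MFAP2, a small glycoprotein bound to fibrillin microfibrils, was 58.46, 52.73 and 50.25 TPM in the controls and 41.27, 43.60 and 44.55 TPM in the KD-labelled libraries. It fell while FBN1 rose (log2 fold change -0.31, limma adjusted p = 0.00928). The ratio of MFAP2 to FBN1 went from 0.868 ± 0.0188 to 0.465 ± 0.0555 (SD, n = 3 each). MGP, matrix Gla protein, known for holding back calcification, was 2.25, 2.97 and 2.26 TPM in the controls and 0.92, 1.08 and 1.65 TPM in the KD-labelled libraries. The groups did not overlap, at a low level (log2 fold change -0.66, limma adjusted p = 0.0222). The adjusted p was 0.0603 without KD replicate 1, 0.0659 without KD replicate 2 and 0.0712 without NC replicate 2. An exon of MGP overlaps C12orf60 on the opposite strand, which averaged 1.81 TPM, about as much as MGP. C12orf60 had a log2 fold change of -0.24 and did not pass the test (limma adjusted p = 0.223).

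The remaining 10 members had a mean under 1 TPM and were not tested with the others. They were FBLN1, FBLN2, FBLN5, EFEMP1, ELN, EMILIN1, MFAP5, NID1, BGN and HAPLN1, of which 7 belong to the elastic fibre and microfibril members. FBLN5, or fibulin-5, was 1.14, 1.52 and 1.15 TPM in the controls and 0.51, 0.39 and 0.43 TPM in the KD-labelled libraries. EFEMP1, or fibulin-3, was 0.05, 0.02 and 0.04 TPM in the controls and 1.18, 0.65 and 0.57 TPM in the KD-labelled libraries. ELN, the gene of elastin, was 0.02, 0.03 and 0.11 TPM and 0.91, 0.48 and 0.37 TPM. These 3 did not overlap between the groups and passed in a limma fit without the limit on low values, in which 8.71% of 30412 genes were lower and 4.55% were higher, with log2 fold changes of -0.65, 0.78 and 0.58 and adjusted p of 0.0161, 0.0149 and 0.041. BGN, encoding biglycan, also did not overlap, at 0.02, 0.09 and 0.29 TPM in the controls and 0.38, 0.50 and 0.64 TPM in the KD-labelled libraries, but did not pass in that fit (adjusted p = 0.071). The other 6 overlapped or were listed at 0. ELN-AS1, on the opposite strand, was more abundant than ELN, between 6.08 and 10.35 TPM. The read depth behind these levels is unknown.

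Of the 20 called members, 10 share an exon with an annotated gene on the opposite strand, whose reads cannot be told apart if counting did not use strand. The DCN, LUM, FN1, SPP1, ECM1, FBN1, LAMB2, LAMC1, MFAP2 and POSTN genes have no such overlap in GENCODE 29.

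A further list of 98 non-collagen matrix genes was set beside the members. Of these, 44 were tested, with 12 lower (27.3%) and 13 higher (29.5%), and their median log2 fold change was -0.03. Of all tested genes 24.0% were lower and 12.1% higher, and of the tested members 39.3% and 32.1%. As deposited, the share lower in this further list was thus near that of all genes, and its share higher near that of the members. With median-of-ratios scaling 11 genes of the list were lower and 14 higher, where 2230 and 2310 of all 13714 genes then tested were, so this reading depends on the scaling. Among the 44, SVEP1, counted as lower, and HMCN1, counted as higher, passed the limit of 1 TPM only through the group where they are high. The largest rises were those of MATN2, MFAP4 and EDIL3. MATN2, encoding matrilin-2, went from 4.28 ± 0.150 to 13.5 ± 0.301 TPM (log2 fold change 1.45, limma adjusted p = 1.22e-05). MFAP4, another microfibril-associated protein, went from 10.9 ± 0.561 to 27.6 ± 1.74 TPM (log2 fold change 1.27, limma adjusted p = 3.48e-05), opposite to MFAP2. EDIL3, an integrin ligand, went from 11.6 ± 0.407 to 21.2 ± 0.814 TPM (log2 fold change 0.82). The largest falls were those of SRGN, SVEP1 and MFGE8. SRGN, the proteoglycan of secretory granules, fell from 76.0 ± 4.69 to 40.8 ± 2.21 TPM (log2 fold change -0.88, limma adjusted p = 0.000117). SVEP1 fell from 1.94 ± 0.186 to 0.737 ± 0.0351 TPM, and MFGE8, another integrin ligand, from 34.6 ± 2.25 to 22.6 ± 1.0 TPM (SD, n = 3 for each mean).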

How the data were processed

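RNA of 3 NC and 3 KD-labelled U87-MG libraries was sequenced by the authors as read pairs. The authors deposited TPM per gene and library, rounded to 2 decimals. The submitters' processing notes list fastp, RSEM and the build GRCh38.p13, and the aligner, annotation and strand setting are not given in the sources used here. TPM keeps no read depth, so depth and counting error are unknown, and no count test was used.

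Ensembl identifiers were matched to symbols, and positions were taken from GENCODE 29. On the scale log2(TPM + 1), genes averaging 1 TPM or more were fitted in R 4.3.3 by limma 3.58.1 (lmFit, eBayes with a trend, group as the only term), with Benjamini-Hochberg adjustment. The fit was tested on simulated data. Fold changes on this scale understate those of low genes. Ratios and CHRM3 were tested by exact two-sided permutation. Tested members with an adjusted p under 0.05, or among the 10 most abundant, were described in each library, and the 3 largest rises and falls of the other list were named, with the remaining laminin chains that join a member chain. The members and lists were chosen with earlier results of these data known. Motifs were chosen after the fold changes were seen. Where a gene had several promoter windows, that nearest the GENCODE start was used. Alternatives varied the pseudocount, the limit on low values, scaling, the trend, a replicate term, the genes tested and the libraries.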

Additional observations from a re-analysis of the deposited data

How the results depend on the processing

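Of the 20 called members, 16 kept their direction and their call in every alternative that tested them. The exceptions were LAMA4, FBN2, POSTN and MGP, which kept their direction and lost their call with no limit on low values (limma adjusted p of 0.0859, 0.0571, 0.066 and 0.0668) and in 3 or 4 of the fits without 1 library; LAMA4 also lost it with no trend (0.0507). The count was 11 members lower and 9 higher, 9 to 11 lower and 7 to 8 higher when each replicate was left out in turn, and 11 and 11 with quantile normalization, where 50.0% of all calls were lower. SRPX2, not called, changed sign from -0.04 to 0.026 with median-of-ratios scaling, 0.038 with quantile normalization and 0.0068 without KD replicate 2, and was -0.11 to 0.0068 over the fits without each library. The CHRM3 difference was -0.065 to -0.00167 TPM when each replicate was left out. All genes called and changed by 1 or more on the log2 scale numbered 256, and 399 with a pseudocount of 0.1 (the cause was not tested), 145 with a limit of 5 TPM and 159 with protein-coding genes, where fewer genes were tested.

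Same-numbered libraries did not deviate together (correlations of -0.0198, 0.0341 and 0.0334 over the tested genes), so the numbers were not taken as pairs. With a replicate block 4007 genes were called in place of 4955, with 10 members lower and 9 higher, and MGP was the member that lost its call (adjusted p = 0.0518).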

Other observations

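Of the 54 other matrix genes with a mean under 1 TPM, 8 were listed at 0 in all 6 libraries, and 2 passed in a limma fit without the limit on low values, in which 8.71% of 30412 genes were lower and 4.55% were higher. ESM1, encoding the endothelial proteoglycan endocan, was 1.08, 1.35 and 1.21 TPM in the controls and 0.17, 0.26 and 0.05 TPM in the KD-labelled libraries (limma adjusted p = 0.00338). BCAN, encoding brevican, a proteoglycan of brain matrix, was 0.77, 0.52 and 0.53 TPM in the controls and 0.09, 0.26 and 0.19 TPM in the KD-labelled libraries (limma adjusted p = 0.0321). Neither group of values overlapped the other, and both genes were lower in the KD-labelled libraries.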
